A study of Mus musculus with 5 samples.

Results

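Fibroblast growth factors (FGFs) are secreted or intracellular proteins, and the secreted ones signal by binding receptor tyrosine kinases (FGFR) together with heparan sulfate. The receptors pass the signal through docking proteins to the RAS and ERK kinase cascade. In mouse embryonic stem cells, which are cultured from the early embryo, FGF and ERK signalling is known for promoting exit from the naive state, and in the blastocyst it promotes primitive endoderm and trophectoderm. The genes described here were all symbols of FGF ligands (Fgf and a number) and FGF receptors (Fgfr1 to Fgfr4) with at least 50 counts, summed over all exon bins and all 5 libraries. Of 24538 gene names in the table, 17 were FGF ligand or receptor symbols and 9 met that rule. These 9 were the receptors Fgfr2, Fgfr3 and Fgfr4 and the ligands Fgf1, Fgf3, Fgf5, Fgf8, Fgf10 and Fgf11. They were thus chosen by their total counts over both groups, so their levels beside those of other genes follow in part from that choice. The genes were proposed with results of the same libraries known.

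Polyadenylated RNA was sequenced from mouse embryonic stem cells. Deleted 1 and 2 came from cells that had lost the −45 super-enhancer, a dense enhancer cluster upstream of Nanog, a transcription factor gene of pluripotent cells. Wildtype 1, 2 and 3 came from wildtype cells. The design text counts 3 libraries per condition, of which the last deletion one was not analysed. Cells grew in 6-well plates, per the labels, and received ethanol vehicle or 4OHT (tamoxifen) for 6 days. The labels do not tie a treatment to a library, and they do not name the strain, the clones or whether replicates were separate cultures. P-values therefore rest on the spread among these libraries alone, and that spread may be technical.

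Bin counts totalled 93574609 and 99134363 in deleted 1 and 2, and 125184361, 114838600 and 213042746 in wildtype 1, 2 and 3. Wildtype 3 had the most counts and differed most within its group, with a chi-square per degree of freedom of 93.4 against wildtype 1 and 87.4 against wildtype 2, while that between wildtype 1 and 2 was 9.96. It was 21.9 between deleted 1 and 2. Rows under a gene symbol held only 0.328% to 0.375% of a library's counts, and 13683 of the names were assembly IDs that the table does not pair with symbols. Fgfr1, Fgf2, Fgf4, Fgf7, Fgf13, Fgf15, Fgf17, Fgf18 and Fgf23 had no symbol row and were not analysed here. None of the 15 listed markers of pluripotent stem cells had a symbol row, so the labelled cell type was not checked against them, and the level of Nanog was not analysed here. A symbol row may miss reads that were counted under an ID for the same locus, and no source used here gives the strand setting. In bulk samples, fewer cells of a type and less RNA per cell cannot be told apart.

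Across the 9 genes, 4 were lower in the deleted cells, none was higher and 5 did not pass. The lowered genes were Fgfr2, Fgf11, Fgf5 and Fgf3. The test was edgeR's quasi-likelihood F test on counts summed per gene, with Benjamini-Hochberg adjusted p under 0.05 over all 16259 tested genes as the threshold. With it, 31.8% of the 3591 tested symbols were called, 12.9% lower and 18.9% higher, and over all tested genes 39.5% were called, 19.6% lower and 19.9% higher. At an unadjusted p under 0.05 with edgeR, 1 of the 9 genes, Fgf10, was higher. At an adjusted p under 0.05, DESeq2 and limma-voom called 0 higher. In the 4 lowered genes both deleted libraries lay below every wildtype library, a separation that 24.2% of tested symbols showed. The median log2 fold change of the 9 genes was −0.54, against 0.07 over tested symbols and 0.01 over all tested genes. All 9 passed the low-count filter, which asked for about 10 counts in 2 libraries of median depth. Fgf5 passed it only through the wildtype libraries, in which it was higher, so its place among the tested genes depended on that level. Levels are given as CPM, the counts scaled to a common library size with TMM factors.

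**Figure D1:**
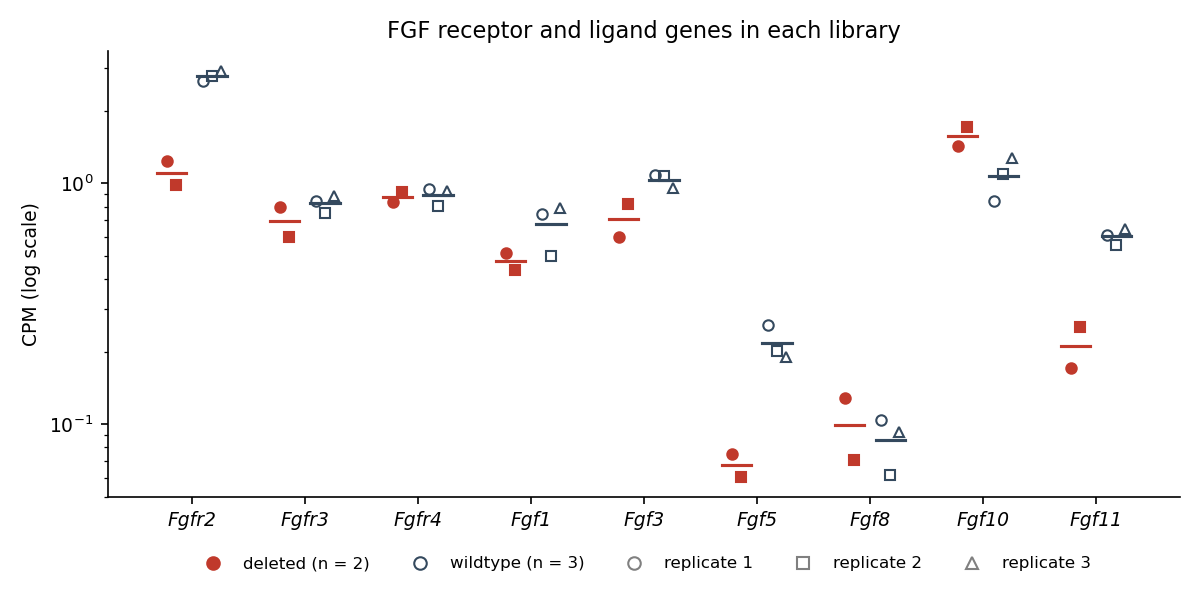
CPM on a log axis of the 9 FGF receptor and ligand genes in the deleted libraries (filled, n = 2) and wildtype libraries (open, n = 3); marker shapes give replicate numbers and short lines the group means. The groups stand apart, deleted below wildtype, for Fgfr2, Fgf3, Fgf5 and Fgf11, and deleted lies above wildtype for Fgf10, while Fgfr3, Fgfr4, Fgf1 and Fgf8 overlap.

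Fgfr2 encodes the receptor that binds ligands such as Fgf1, Fgf3 and Fgf10, and it is known for trophectoderm and primitive endoderm of the mouse blastocyst. Fgfr2 stood at 1.23 and 0.979 CPM in deleted 1 and 2, and at 2.66, 2.78 and 2.92 CPM in wildtype 1, 2 and 3. Both deleted libraries lay far below every wildtype library, and the wildtype libraries differed little among themselves, with a coefficient of variation of 4.66%. The means were 1.11 ± 0.179 CPM in deleted libraries (n = 2, SD) and 2.79 ± 0.130 CPM in wildtype ones (n = 3, SD). The log2 fold change was −1.34 ± 0.13 (SE; adjusted p = 0.000321, edgeR), which left Fgfr2 at 39.6% of the wildtype level. Among the 3591 tested symbols Fgfr2 had rank 55 by p. It kept its direction and its call in all 13 alternatives tried, with log2 fold changes of −1.51 to −1.20.

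The table divides Fgfr2 into 19 exon bins. All 19 had a lower mean CPM in the deleted cells, and in 16 of them both deleted libraries lay below every wildtype library. Among bins of symbols with at least 10 counts in all, 16.4% were separated in that way, and among bins that could be tested 19.3%. Bins of 1 gene share reads and libraries, so the count of 16 describes how the change was spread along Fgfr2 and is no replication of it. Bin 1, the most counted, had 37 and 26 counts in deleted 1 and 2, and 94, 100 and 198 in wildtype 1, 2 and 3. Scaled to depth, that bin averaged 0.330 CPM in deleted and 0.849 CPM in wildtype cells. It held 29.5% ± 3.80 of all its gene's counts in deleted libraries (n = 2, SD) and 30.4% ± 1.74 in wildtype ones (n = 3, SD).

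The next most counted bins were 14, with 80 counts over all libraries, and 7, with 75. Bin 14 held 7.17% ± 1.53 of the Fgfr2 counts in deleted libraries (n = 2, SD) and 5.02% ± 0.846 in wildtype ones (n = 3, SD). Bin 7 held 3.88% ± 1.80 in deleted libraries (n = 2, SD) and 5.39% ± 0.612 in wildtype ones (n = 3, SD). These shares move in opposite directions by amounts close to their spread. How a gene's counts were divided among its bins (exon usage) was compared by diffSpliceDGE of edgeR. For Fgfr2, 16 bins could be tested and the Simes adjusted p of the gene was 1. Bin use differed in 0.361% of the 149501 bins and, by the Simes test, in 2.76% of the 13045 genes tested. FGFR2 messages carry alternative exons, named IIIb and IIIc, that set which ligands the receptor binds; the table gives no bin positions, so bins were not assigned to these exons.

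**Figure D2:**
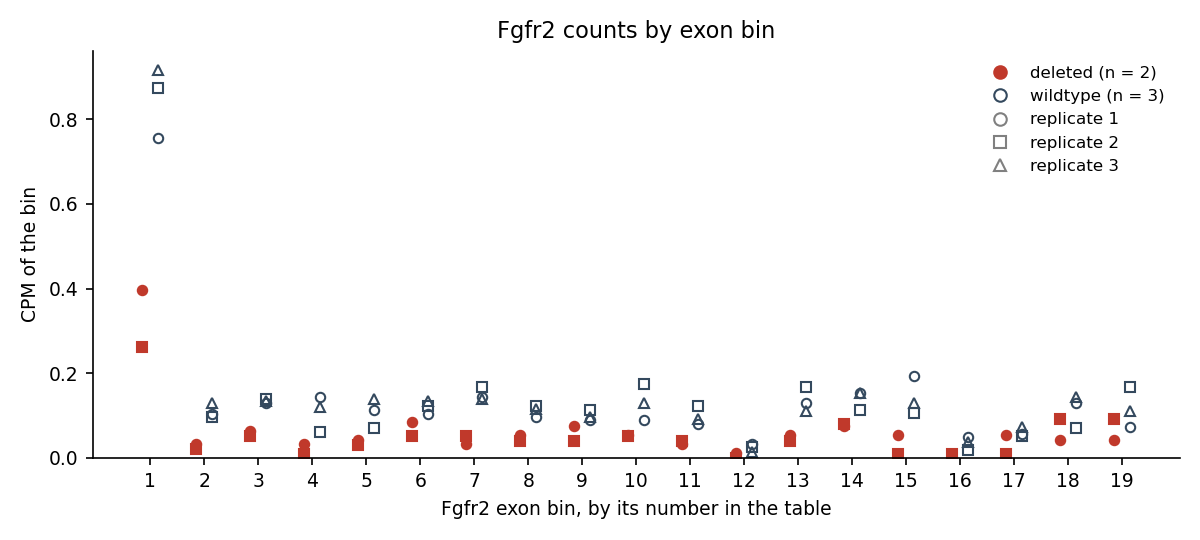
CPM in each of the 19 exon bins of Fgfr2, numbered as in the table, for the deleted libraries (filled, n = 2) and the wildtype libraries (open, n = 3). Bin 1 averages 0.330 CPM in deleted and 0.849 CPM in wildtype cells, and bins 17, 18 and 19 are those in which the groups overlap.

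Fgfr3, a receptor known for limiting bone growth, had 0.793 and 0.596 CPM in deleted 1 and 2, and 0.844, 0.753 and 0.889 CPM in wildtype 1, 2 and 3. Deleted 2 was lowest, while deleted 1 lay inside the wildtype range. Its log2 fold change was −0.27 ± 0.18 (SE; adjusted p = 0.272, edgeR). Fgfr4, a receptor known in liver for the response to bile acid-induced FGF, had 0.836 and 0.919 CPM in deleted 1 and 2, and 0.949, 0.805 and 0.930 CPM in wildtype 1, 2 and 3. The groups overlapped fully, with a log2 fold change of −0.03 ± 0.15 (SE; adjusted p = 0.884, edgeR). Fgfr3 shares exon sequence with the opposite-strand gene G630022F23Rik in GENCODE vM21, and with no strand stated their reads cannot be separated.

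Ratios within a library do not depend on its depth. The Fgfr2 over Fgfr3 count ratio was 1.55 and 1.64 in deleted 1 and 2, and 3.15, 3.70 and 3.29 in wildtype 1, 2 and 3. The Fgfr2 over Fgfr4 ratio was 1.47 and 1.07 in the deleted libraries, and 2.81, 3.46 and 3.14 in the wildtype libraries. Both ratios were lower in the deleted cells, without overlap, by log2 differences of −1.08 and −1.32. The Fgfr3 over Fgfr4 ratio overlapped, at 0.949 and 0.648 in deleted and 0.890, 0.935 and 0.955 in wildtype libraries. In 4 such ratios, chosen after their values were seen, the exact two-sided permutation test gave p = 0.1 for both Fgfr2 ratios, the smallest that 2 against 3 libraries allow, and p = 0.3 for Fgfr3 over Fgfr4. The exact permutation p-values adjusted over the 4 ratios were 0.133 and 0.3. Of the summed counts of the 3 receptors, Fgfr2 took 43.1% and 39.3% in deleted 1 and 2, and 59.8%, 64.1% and 61.6% in wildtype 1, 2 and 3.

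**Figure D3:**
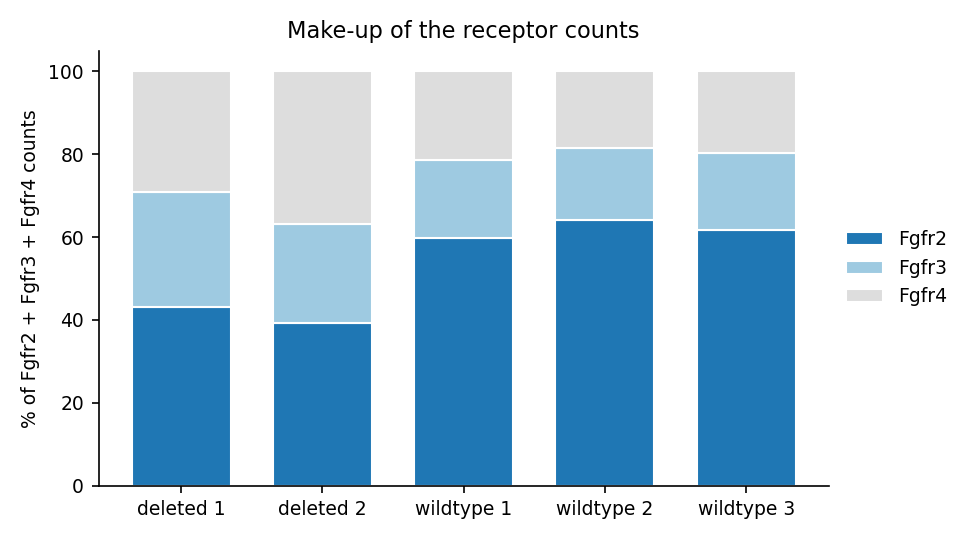
Share of the summed Fgfr2, Fgfr3 and Fgfr4 counts that each receptor takes in each library, in percent, not corrected for gene length, with the deleted libraries left of the wildtype libraries. Fgfr2 takes 43.1% and 39.3% in the deleted and 59.8% to 64.1% in the wildtype libraries.

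Among the ligands, Fgf5 is a marker of the post-implantation epiblast and of cells leaving the naive state, and a regulator of the hair cycle. Fgf5 was counted 7 and 6 times in deleted 1 and 2, and 32, 23 and 41 times in wildtype 1, 2 and 3. This made 0.0750 and 0.0606 CPM in the deleted libraries, and 0.257, 0.201 and 0.190 CPM in the wildtype libraries. Every deleted value lay below every wildtype value. The 95% Poisson intervals cover counting error only and take each count as a separate read. A read that spans bins counts more than once, so the intervals may be too narrow. They ran up to 0.155 and 0.132 CPM in deleted 1 and 2 and began at 0.176, 0.128 and 0.136 CPM in wildtype 1, 2 and 3. Those of deleted 1 thus overlap wildtype 2 and 3, and those of deleted 2 overlap wildtype 2. Fgf5 was lower by a log2 fold change of −1.64 ± 0.36 (SE; adjusted p = 0.00889, edgeR). The call ended without deleted 1 (−1.80; edgeR adjusted p = 0.0527) and without deleted 2 (−1.52; edgeR adjusted p = 0.0693).

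Of the 3 bins of Fgf5, bin 3 held most counts, with 3 and 6 in deleted 1 and 2 and 21, 19 and 33 in wildtype 1, 2 and 3. Bin 1 had 2 and 0 counts in the deleted libraries and 9, 4 and 6 in the wildtype libraries, and bin 2 had 2 and 0 against 2, 0 and 2. Bins 1 and 3 were separated, deleted below wildtype, as were 16.4% of symbol bins with at least 10 counts in all. Bin 2 was too thinly counted to compare. Because Fgf5 was lowered and its annotated start is the same in RefSeq and GENCODE, the 250 bases upstream of it are shown. They lie at chr5:98253934-98254183 on the plus strand of GRCm38.p6 and come from RefSeq, 5′ to 3′, with motif matches in capitals.
Fgf5 upstream: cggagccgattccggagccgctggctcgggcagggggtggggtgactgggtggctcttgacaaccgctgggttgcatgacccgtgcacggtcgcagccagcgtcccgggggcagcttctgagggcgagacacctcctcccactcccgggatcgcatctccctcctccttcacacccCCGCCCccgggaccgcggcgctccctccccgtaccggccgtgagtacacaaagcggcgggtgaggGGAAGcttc
The capitals mark 1 GC box (GGGCGG on the other strand), 74 bases upstream of the start, and 1 ETS core (GGAAG), 9 bases upstream; searches covered both strands and these matches do not overlap. Of 32851 mouse promoter windows of the same length, 32.7% held the GC box and 64.1% the ETS core. The TATA box (TATAAA) had no match in these letters and was in 12.4% of all windows. The CCAAT box, in 33.8% of windows, and the core of LEF and TCF sites (CTTTGA), in 13.8%, had none either. These matches describe the sequence and say nothing about binding.

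Fgf11 encodes an intracellular FGF of the kind that binds sodium channels and does not act through FGF receptors. It had 0.172 and 0.252 CPM in deleted 1 and 2, and 0.611, 0.551 and 0.648 CPM in wildtype 1, 2 and 3. The highest deleted value was less than the lowest wildtype value by a wide gap, and the wildtype libraries lay close together. The deleted-minus-wildtype log2 fold change was −1.51 ± 0.23 (SE; adjusted p = 0.00186, edgeR), so Fgf11 stood at 35.2% of the wildtype level. Its call held in all 13 alternatives, at −1.84 to −1.26. All 7 of its bins had a lower mean CPM in the deleted cells. In 4 of them both deleted libraries lay below every wildtype library, beside 16.4% of symbol bins with at least 10 counts in all. Of these 4, bins 2, 3 and 6 had only 18, 19 and 35 counts over all libraries. Bins of 1 gene share reads and libraries, so the count of 4 is no replication of the change. The most counted, bin 1, had 11 and 18 counts in deleted 1 and 2, and 47, 41 and 88 in wildtype 1, 2 and 3. Fgf11 bins were too low for the exon usage test.

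Fgf3 and Fgf10 belong to 1 subfamily of ligands that act mainly through the epithelial form of Fgfr2 and differed here in the sign of their fold change. Fgf3, known for inner ear and tail development, had 0.600 and 0.818 CPM in deleted 1 and 2, and 1.09, 1.07 and 0.953 CPM in wildtype 1, 2 and 3. Both deleted libraries lay below the wildtype ones, with deleted 2 closer to them. The log2 fold change was −0.54 ± 0.17 (SE; adjusted p = 0.0423, edgeR). The call ended without deleted 1 (−0.33; edgeR adjusted p = 0.268), without wildtype 1 (−0.52; 0.0900) and without wildtype 2 (−0.51; 0.0949). It ended also with bin 3 alone, the most counted (−0.38; edgeR adjusted p = 0.119), with DESeq2 (−0.55; adjusted p = 0.0683) and with limma-voom (−0.53; adjusted p = 0.0571).

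Fgf10, the mesenchymal ligand known for lung and limb bud outgrowth, had 1.43 and 1.72 CPM in deleted 1 and 2, and 0.844, 1.09 and 1.27 CPM in wildtype 1, 2 and 3. Both deleted values exceeded all wildtype values, and 32.8% of tested symbols were separated upward in this way. The wildtype libraries were spread, with a coefficient of variation of 19.9% and wildtype 3 the highest. Its log2 fold change was 0.54 ± 0.19 (SE; adjusted p = 0.0533, edgeR) and did not pass. It passed without wildtype 3 (0.69; edgeR adjusted p = 0.00690). All 3 bins of Fgf10 had a higher mean CPM in the deleted cells. The Fgf10 over Fgf3 count ratio was 2.38 and 2.10 in deleted 1 and 2, and 0.778, 1.02 and 1.33 in wildtype 1, 2 and 3 (log2 difference 1.13; exact permutation p = 0.1, adjusted 0.133). Fgf10 shares exon sequence with the opposite-strand gene Gm16263 in GENCODE vM21.

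Fgf1, a ligand able to bind every FGF receptor, had 0.514 and 0.434 CPM in deleted 1 and 2, and 0.748, 0.499 and 0.787 CPM in wildtype 1, 2 and 3. Wildtype 2 lay between the deleted libraries, so the groups overlap. The log2 fold change was −0.54 ± 0.24 (SE; adjusted p = 0.115, edgeR), and it passed without wildtype 2 (−0.70; edgeR adjusted p = 0.0324). Fgf8, a ligand required for cell movement in the gastrulating embryo, had 12 and 7 counts in deleted 1 and 2, and 13, 7 and 20 counts in wildtype 1, 2 and 3. These were 0.129 and 0.0707 CPM in the deleted, and 0.105, 0.0613 and 0.0926 CPM in the wildtype libraries, overlapping throughout. At this depth no difference in Fgf8 was detectable, with a log2 fold change of 0.17 ± 0.44 (SE; adjusted p = 0.782, edgeR).

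**Figure D4:**
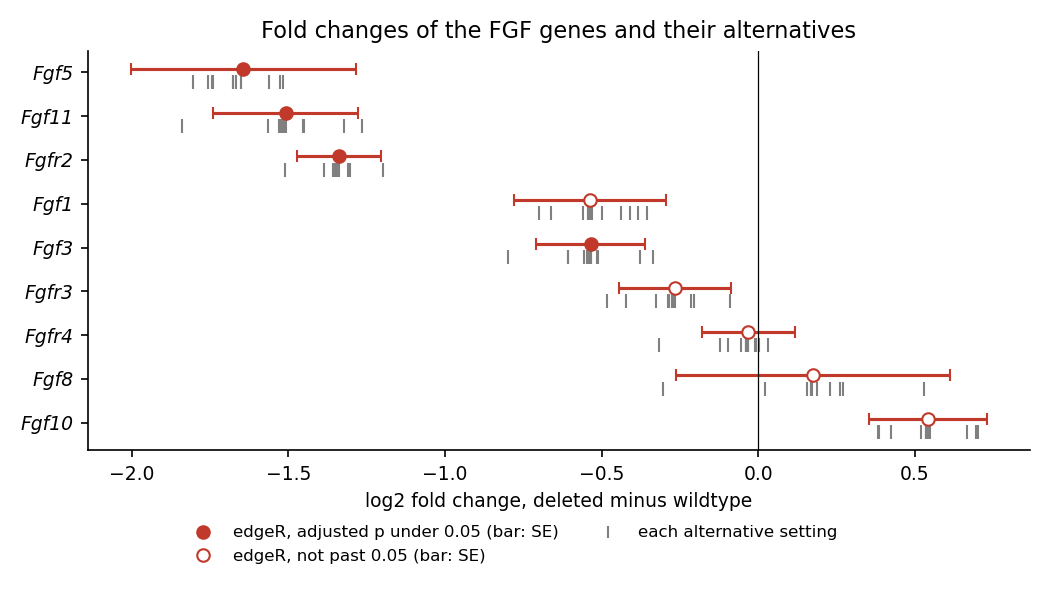
Log2 fold changes, deleted minus wildtype, of the 9 FGF genes with SE bars from edgeR (filled where adjusted p is under 0.05), and below each a grey tick for every alternative in which it was tested. The ticks of Fgfr2 (−1.51 to −1.20), Fgf11 and Fgf5 stay well below 0, those of Fgf10 stay above 0, and those of Fgf8 and Fgfr4 fall on both sides.

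Exon usage could be tested in 25 bins of 4 of the genes, Fgfr2, Fgf3, Fgf10 and Fgfr4. None passed with edgeR, none had an unadjusted p under 0.05 and no other tool was run; the smallest unadjusted p was 0.132, in bin 4 of Fgfr2. Fgf10 bin 3 held 58.4% ± 3.92 of all its gene's counts in deleted libraries (n = 2, SD) and 63.6% ± 4.84 in wildtype ones (n = 3, SD), and bin 1 held 35.0% ± 3.71 and 29.6% ± 7.34. Fgf3 bin 3 held 67.2% ± 5.99 in deleted and 60.7% ± 2.56 in wildtype cells. These differences in Fgf10 and Fgf3 were close to the spread between libraries.

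Outside the rule, 8 further FGF symbols had under 50 counts in all. Fgf14, just outside, had 43 counts, with 6 and 10 in deleted and 10, 5 and 12 in wildtype libraries. Fgf8, just inside, had 59. Fgf22, Fgf12, Fgf9 and Fgf20 had 38, 30, 21 and 19 counts, Fgf16 and Fgf21 had 2 and 1, and Fgf6 had 0. None of the 8 passed the low-count filter. The Fgf12 counts lay mostly in wildtype 3, with 18 of 30.

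Divided by the exon length of the longest CCDS transcript in GENCODE vM21, levels can be ordered between genes as CPM per kilobase. In the deleted cells Fgf10 was highest at 0.382 ± 0.050 CPM per kilobase, followed by Fgf3 at 0.308 ± 0.0669, Fgfr4 at 0.264 ± 0.0176 and Fgfr2 at 0.257 ± 0.0415 (SD, n = 2). Neighbours among these 4 overlapped between libraries. Fgfr3 at 0.164, Fgf1 at 0.119, Fgf8 at 0.0853, Fgf11 at 0.0697 and Fgf5 at 0.0271 CPM per kilobase came next, with Fgf1 and Fgf8, and Fgf8 and Fgf11, overlapping. In the wildtype cells Fgfr2 came first at 0.647 ± 0.0301 CPM per kilobase (SD, n = 3), above Fgf3 at 0.450 ± 0.0311 and Fgfr4 at 0.269 ± 0.0235, with no overlap between those neighbours. Fgf10 at 0.260, Fgf11 at 0.199, Fgfr3 at 0.195 and Fgf1 at 0.170 CPM per kilobase followed, each overlapping the next, and Fgf5 at 0.0864 and Fgf8 at 0.0737 came last. The median log2 CPM was −0.32 for the 9 genes, −1.12 for tested symbols and 3.46 for all tested genes. The 9 genes were chosen for at least 50 counts, more than the low-count filter asks. Their place above tested symbols therefore follows in part from that choice. The lengths follow a later build than the authors' and are approximate.

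The genes lie on different chromosomes. Fgfr2 and Fgf3 are on chromosome 7, where the median log2 fold change of 276 tested symbols was 0.21, with 28.3% higher and 10.9% lower. Fgf5 and Fgfr3 are on chromosome 5 (median 0.05 over 220 symbols) and Fgf11 is on chromosome 11 (median 0.02 over 287). Fgf10 and Fgfr4 are on chromosome 13 (median −0.03 over 151 symbols), and Fgf1 and Fgf8 are on 18 and 19 (medians 0.05 over 88 and 100). The falls of Fgfr2 and Fgf3 thus stood on a chromosome whose tested symbols were more often higher than lower.

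The symbols closest to Fgfr2 in pattern were Sspn, Fibcd1 and Gfra2. Likeness was the root mean square difference of mean-centred log2 CPM over the 5 libraries, which was 0.07, 0.08 and 0.09 among 3590 other symbols. Gfra2, a receptor gene for glial cell line-derived neurotrophic factors, had 0.343 and 0.323 CPM in deleted 1 and 2, and 0.860, 0.936 and 0.935 CPM in wildtype 1, 2 and 3. Pde10a, Naip5 and Fibcd1 were closest to Fgf5, at 0.09, 0.10 and 0.12. Pde10a, a phosphodiesterase gene, had 0.247 and 0.202 CPM in deleted 1 and 2, and 0.651, 0.569 and 0.546 CPM in wildtype 1, 2 and 3. With 5 libraries, any gene that is lower in both deleted libraries by a like amount comes near.

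Other genes of the pathway were taken from lists chosen with earlier results of these data known. Over tested symbols, 18.9% were higher and 12.9% lower, and the counts called in a list are to be read beside these shares. Of 44 co-receptors, FGF-binding proteins and heparan sulfate genes, 14 were tested, of which 2 were higher, 3 lower and 9 did not pass, with a median log2 fold change of 0.01. Klb, the β-Klotho co-receptor that endocrine FGFs need, had 0.354 and 0.454 CPM in deleted 1 and 2, and 0.217, 0.193 and 0.231 CPM in wildtype 1, 2 and 3. The log2 fold change of Klb was 0.90 ± 0.23 (SE; adjusted p = 0.0167, edgeR), a call that ended without deleted 2 (0.69; 0.150) and in the most counted bin (0.44; 0.465). Extl1, of the exostosin-like glycosyltransferases, averaged 1.46 ± 0.00442 CPM in deleted libraries (n = 2, SD) and 3.68 ± 0.416 CPM in wildtype ones (n = 3, SD), a log2 fold change of −1.33 ± 0.13. The heparan sulfate 3-O-sulfotransferase genes that were called moved both ways, while the others tested overlapped between groups and did not pass. Hs3st4 and Hs3st3b1 had log2 fold changes of −2.14 ± 0.33 and −0.53 ± 0.12, and Hs3st6 one of 1.03 ± 0.18 (SE; edgeR adjusted p of 0.0108 or lower for these 4 genes). Hs3st4 had 9 and 7 counts in deleted 1 and 2, and only 1 deleted library reached the filter's level. Its place among the tested genes thus depended on the wildtype libraries, in which it was higher. The Hs3st3b1 call ended without deleted 2 (−0.44; edgeR adjusted p = 0.0782). Fgfbp3, Gpc6 and Sdc3, for a secreted FGF carrier, a glypican and a syndecan, had 0.51 ± 0.20, −0.58 ± 0.23 and 0.27 ± 0.12 (SE; adjusted p = 0.0745, 0.0811 and 0.100, edgeR).

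Of 43 signal transducers downstream of the receptors, 8 had symbol rows and all 8 were tested. Of these, 2 were higher, 4 lower and 2 did not pass, with a median log2 fold change of −0.45. The shares over tested symbols were 18.9% higher and 12.9% lower. Gab2, a docking protein gene, averaged 0.181 ± 0.0291 CPM in deleted libraries (n = 2, SD) and 0.372 ± 0.0513 CPM in wildtype ones (n = 3, SD), a log2 fold change of −1.02 ± 0.25. In its most counted bin Gab2 had −3.40 ± 0.66 (SE; adjusted p = 0.00416, edgeR), a larger fall than over the whole gene. Pik3r1, for a regulatory subunit of PI 3-kinase, Ksr1, for a scaffold of the ERK cascade, and Sos2, for an activator of RAS, had −0.62 ± 0.15, −0.48 ± 0.11 and −0.42 ± 0.11 (SE; edgeR adjusted p of 0.0201 or lower for these 4 genes). Without deleted 1 none of these 4 passed (edgeR adjusted p = 0.116, 0.109, 0.103 and 0.159), and the Gab2 call ended without deleted 2 (0.0520) and the Sos2 call without wildtype 1 (0.0543). Grb14, an adaptor that restrains receptor kinases, was higher at 0.42 ± 0.12 (SE; adjusted p = 0.0270, edgeR). That call ended without deleted 2, wildtype 1 or wildtype 2 (edgeR adjusted p = 0.225, 0.0711 and 0.0526) and in the most counted bin (0.57; 0.219). Shc3, an adaptor of the Shc family, rose by 1.94 ± 0.49 on the log2 scale (SE; adjusted p = 0.0168, edgeR), but it met the filter only in the deleted libraries and its call ended without deleted 1 (0.0695) and without deleted 2 (0.119).

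Of 25 targets and feedback inhibitors of FGF and ERK signalling, such as the Spry, Dusp and Etv genes, only Spry3, Egr2 and Egr3 had symbol rows, and none had enough counts for a test. Their summed level was 0.0750 and 0.121 CPM in deleted 1 and 2, and 0.145, 0.105 and 0.0972 CPM in wildtype 1, 2 and 3, with Spry3 at 0 in every library. Egr2 and Egr3 had 30 and 40 counts over all libraries.

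Among 18 tested receptor tyrosine kinases outside the FGF family, 4 were higher, 3 lower and 11 did not pass, with a median log2 fold change of −0.06. Over tested symbols, 18.9% were higher and 12.9% lower. Pdgfra, Ror1 and Epha7 were the lower ones and Ntrk2, Ephb6, Ret and Pdgfrb the higher ones, with log2 fold changes of −1.02 to −0.35 and 0.49 to 0.69. The Pdgfra and Ntrk2 calls ended without deleted 1 (edgeR adjusted p = 0.0692 and 0.0597), and the other calls ended without deleted 2 (edgeR adjusted p = 0.0895 to 0.115). Those of Ror1, Epha7, Ephb6 and Ret also ended without deleted 1 (edgeR adjusted p = 0.0559 to 0.225) and without at least 1 wildtype library (0.0508 to 0.106). In the most counted bin the calls of Ntrk2, Pdgfrb and Ret ended (edgeR adjusted p = 0.0976, 0.0765 and 0.491) and Epha7 had 0.10 (0.864). DESeq2 ended those of Ror1 and Epha7 (adjusted p = 0.0729 and 0.128), and limma-voom that of Epha7 (adjusted p = 0.0662).

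**Figure D5:**
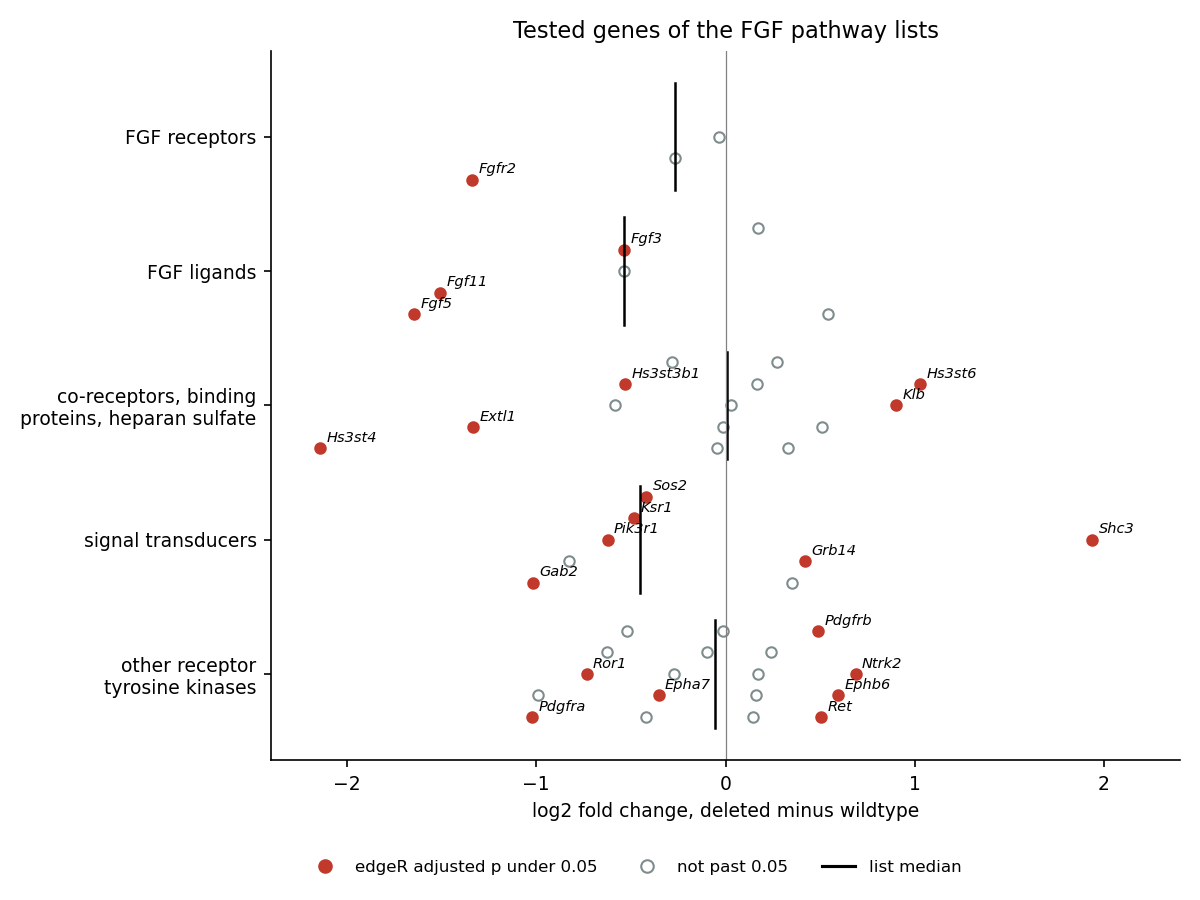
Log2 fold changes, deleted minus wildtype, of every tested gene in the FGF pathway lists and among other receptor tyrosine kinases (filled and named where edgeR adjusted p is under 0.05, open otherwise; vertical bars are list medians). Medians are −0.27 for the 3 FGF receptors, −0.54 for the 6 ligands, 0.01 for co-receptors and heparan sulfate genes, −0.45 for signal transducers and −0.06 for other kinases.

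Fgfr2 and Fgf5 also serve as lineage markers. The counts called in the marker lists are to be read beside the 12.9% of tested symbols that were lower and the 18.9% that were higher. In the trophectoderm list, 3 of 7 tested genes were lower and 4 did not pass. Beside Fgfr2 the lower ones were Gata2 at −0.80 ± 0.14 and Cdx2 at −1.32 ± 0.43 (SE; adjusted p = 0.00363 and 0.0436, edgeR), both transcription factor genes. Cdx2 had 4 and 13 counts in deleted 1 and 2, and only 1 deleted library reached the filter's level. Its place among the tested genes thus depended on the wildtype libraries, in which it was higher. The Cdx2 call ended without deleted 1 (−0.75; edgeR adjusted p = 0.254), wildtype 1 (0.0819) or wildtype 3 (0.0569), in the most counted bin (0.0610) and with DESeq2 (adjusted p = 0.0717). Hand1 and Tfap2a, also transcription factor genes, did not pass, at 0.74 ± 0.33 and 0.33 ± 0.15 (SE; adjusted p = 0.109 and 0.111, edgeR). For each, both deleted libraries lay above every wildtype library, a separation that 32.8% of tested symbols showed. Tfap2a passed without wildtype 3 (0.44; edgeR adjusted p = 0.0314). Without Fgfr2, the other 7 rows of the list summed to 3.41 and 3.31 CPM in deleted 1 and 2, and 3.55, 4.04 and 4.22 CPM in wildtype 1, 2 and 3. With Fgfr2, the sums were 4.64 and 4.29 CPM in the deleted libraries, and 6.21, 6.83 and 7.14 CPM in the wildtype libraries, so Fgfr2 itself made up most of that difference. Of 19 listed genes of the formative and post-implantation epiblast, only 3 had symbol rows, and these were tested. Lef1 and Fgf5 were lower and Cdh2 did not pass. Lef1, a mediator of Wnt signalling, had −1.03 ± 0.17 (SE; adjusted p = 0.00298, edgeR). Without Fgf5, the 2 rows left, Lef1 and Cdh2, summed to 3.28 and 3.15 CPM in deleted, and 4.47, 4.03 and 5.54 CPM in wildtype libraries. Lef1 averaged 1.27 CPM in deleted and 2.57 CPM in wildtype libraries, and Cdh2 averaged 1.94 and 2.11 CPM.

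Of 10 tested primitive endoderm genes, 3 were lower, beside 12.9% of tested symbols. Cubn, Sox7 and Pdgfra were the lower ones, at −2.07, −0.89 and −1.02 on the log2 scale (edgeR adjusted p = 0.000869, 0.00370 and 0.00847). The Pdgfra call ended without deleted 1 (−0.74; 0.0692) and the Cubn call in the most counted bin (−0.80; 0.173). The regulators Gata4 and Gata6 had −0.02 and −0.24 and did not pass (edgeR adjusted p = 0.936 and 0.391). The list summed to 6.27 and 7.24 CPM in deleted 1 and 2, and 8.66, 9.62 and 9.54 CPM in wildtype 1, 2 and 3, with Ttr at 0 in every library. Fibroblasts are a usual feeder cell type of such cultures and a known source of Fgf10. Of their 8 tested markers, 5 were called higher, beside 18.9% of tested symbols. The remaining 3 stayed outside the threshold, so this list had no lower call. Each of the 5 calls, on Col1a2, Col5a2, Col6a1, Col6a2 and Pdgfrb, ended without 1 of the deleted libraries (edgeR adjusted p = 0.0634 to 0.200), and those of Col5a2 and Col6a2 also without wildtype 1 (0.0698 and 0.0917) or wildtype 2 (0.0627 and 0.0971). Col6a1 was tested only because its deleted libraries, the higher ones, passed the filter, with 9 and 22 counts in deleted 1 and 2 and 4, 3 and 10 in wildtype 1, 2 and 3. The 15 fibroblast rows summed to 14.4 and 14.3 CPM in deleted 1 and 2, and 10.1, 10.6 and 13.4 CPM in wildtype 1, 2 and 3. Rows of the list differed widely in counts. Dcn, Lum and Postn had 3, 1 and 1 counts in all libraries together, where reads under an assembly ID may be missed. Fbn1, Col1a1 and Twist1 had 3832, 545 and 495 counts. These 3 did not pass, at log2 fold changes of 0.15, 0.18 and −0.17 (edgeR adjusted p = 0.499, 0.372 and 0.543). The part of these cell types in the levels of Fgfr2, Fgf5 and Fgf10 was not tested.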

How the data were processed

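RNA from 2 deleted and 3 wildtype libraries was read from the authors' deposited table of raw counts per exon bin, which names genes by symbol or assembly ID. STAR and mm9 are named, without versions, in the submitters' processing notes; annotation, counting settings and strand were not given in the sources used here. Every value column was matched to a sample by its title. Bin counts were summed per gene, so a read that spans bins counts more than once. Spike-in rows, 0.000320% to 0.000508% of counts, were left out.

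Genes were filtered with filterByExpr (minimum count 10 in 2 libraries, minimum total 15), given TMM factors and fitted with glmQLFit and glmQLFTest (edgeR 4.0.16, limma 3.58.1, R 4.3.3), with Benjamini-Hochberg adjustment over all genes. Exon usage was tested with diffSpliceDGE. The scripts were tested on simulated data. Alternatives were DESeq2 1.42.0, limma-voom, other scalings and filters, each gene's most counted bin, a replicate block and leaving out each library. One count was worth 0.00463 to 0.0107 CPM. Poisson intervals cover counting error only and take each count as a separate read, so they may be too narrow.

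The FGF genes, the pathway and marker lists and the tests were chosen with earlier results of these data known. Named pathway genes were those past the threshold in each list and up to 3 others by smallest p. Upstream sequence came from RefSeq (GRCm38.p6), and lengths and chromosomes from GENCODE vM21. A result in the primitive endoderm list is not reported here.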

Additional observations from a re-analysis of the deposited data

How the results depend on the processing

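Fgfr2 and Fgf11 kept their direction and call in all 13 alternatives, Fgfr2 with adjusted p of 8.89e-13 to 0.00601 and Fgf11 with 0.000123 to 0.0233. Leaving out 1 library at a time gave 3206 to 8282 genes called over all genes, against 6421 with all libraries, 2 to 4 FGF genes lower, 0 to 1 higher (Fgf10, without wildtype 3) and 165 to 1016 exon bins called, against 540. The lowest of these counts came without deleted 1 and the highest without wildtype 3. Fgf5 then ranged from −1.80 to −1.52, and its call ended without deleted 1 (−1.80) or deleted 2 (−1.52). Of the FGF genes that did not pass, Fgf8 ranged from −0.31 to 0.53 and Fgfr4 from −0.12 to 0.032. Among list genes without a call, Cdh2 ranged from −0.22 to 0.012, Dab2 from −0.024 to 0.19, Foxa2 from −0.10 to 0.60 and Twist1 from −0.50 to 0.086. In the most counted bin Epha7 had 0.10 and Dab2 −0.053. Where 1 library was left in a group, it was assumed to vary like the other group; the cause of these changes was not tested.

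Replicate numbers 1 and 2 occur in both groups, and the deviations of same-numbered libraries from their group means correlated at 0.05 and −0.05 across genes. With 2 deleted libraries these deviations mirror each other, and wildtype 1 and 2 both differed most from wildtype 3. Opposite signs can arise from this alone, so the check cannot decide whether the numbers pair the libraries. With the replicate number as a block, in which wildtype 3 has no partner, 8250 genes and 958 exon bins were called, 4 FGF genes were lower and 1 was higher (Fgf10, 0.70; edgeR adjusted p = 0.00300). Fgfr4 had 0.0024 and Cdh2 0.020. The block also ended the calls of Epha7 and Cdx2 (edgeR adjusted p = 0.0798 and 0.0637) and made calls on Insr, Tfap2a and Fbn1 (0.0424, 0.0393 and 0.00412). No exon bin of the FGF genes was called with edgeR in any of these fits. Of 583 alternatives for 46 pathway and marker genes, 499 left the call as it was, 62 ended it, 15 made one and 7 turned the direction. With at least 10 counts required in every library, Fgf5 and Fgf8 could not be tested, nor Fgf8 in its most counted bin. At 1 deleted-library count per 0.0101 to 0.0107 CPM, Fgf5 and Fgf8 rest on few reads.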
